A study of Mus musculus with 13 samples.

Results

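Alveolar macrophages are the resident phagocytes of the airspaces of the lung, and the 4 libraries described here are those of animals that received neither drug nor particles. They are the vehicle PBS libraries, 4 of 13 in the series, and were chosen by the sample names of the deposited count table. The animals were male C57Bl/6 mice, 10 weeks old, that received vehicle in place of metformin and an intratracheal instillation of phosphate-buffered saline (PBS). The control animals were therefore instilled as well, and no library of an animal without instillation was analysed here. Cells were collected 24 h after instillation, a time read from a protocol text that describes the drug and particle treatments. Alveolar macrophages were sorted by flow cytometry, about 100K cells per sample, and their polyadenylated RNA was sequenced. The sorting markers are not given in the sources used here. The other groups received metformin, PM (a reference particulate matter, 10 µg per animal) or both, with 3 animals each, and enter only the comparison of the most abundant genes at the end. The libraries are called animals 1 to 4 after the numbers in the labels, and each is taken as 1 animal.

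Alveolar macrophages settle in the lung around birth, renew themselves there and take up the surfactant, inhaled particles, microbes and dead cells that reach the alveoli. Their identity depends on granulocyte-macrophage colony-stimulating factor (GM-CSF) and transforming growth factor beta from the surrounding tissue, which act through the transcription factor PPARγ. The cells are known for handling the cholesterol, phospholipid and fatty acids of surfactant, for an extensive lysosomal system and for a wide set of receptors that sense microbes and debris.

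The reads assigned to genes numbered 6304615, 6362497, 6258311 and 5567481 in animals 1 to 4. Levels are given as CPM, the count scaled to a library total of 1e6, and values written with ± are the mean and SD (n = 4). A gene is called present at 1 CPM or more in all 4 animals, not detected at 3 counts or fewer summed over the animals (0.122 CPM of all their reads), and low in between. These limits cover counting error only. Of 43430 genes listed, 11436 (26.3%) were present and held 99.8% of the reads, 3623 were low and 28371 were not detected. Among protein-coding genes of GENCODE M21, 10477 of 21474 (48.8%) were present, with a median of 34.1 CPM among those present. The 10 most abundant genes of each library held 8.53 ± 0.194% of its reads and the 50 most abundant 18.2 ± 0.199%, and 705 to 718 genes were enough for 50% of the reads. Mitochondrially encoded genes held 0.996 ± 0.0318% and ribosomal protein genes 1.97 ± 0.0565%. In every pair of libraries, 426 to 1132 genes differed by more than counting error (r on log2 CPM 0.987 to 0.991, across genes).

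The most abundant RNAs encoded secreted antimicrobial and chitin-binding proteins and the contents of lysosomes. Lyz2, the macrophage lysozyme (ENSMUSG00000069516; chromosome 10, 117277334 to 117282274), led with 20592, 20947, 20219 and 20423 CPM in animals 1 to 4. Chil3, a secreted chitinase-like protein (ENSMUSG00000040809; chromosome 3, 106147554 to 106167564), came next with 17313, 17875, 19092 and 14349 CPM, and the value of animal 4 was the lowest. No other gene exceeded 10000 CPM, and 93 genes lay between 1000 and 10000. The aspartyl protease gene Ctsd (ENSMUSG00000007891; chromosome 7, 142371148 to 142388038) stood at 8587, 8189.7, 8110.0 and 8588 CPM. Psap, whose product is cut into the saposins that help degrade sphingolipids, stood at 6468 ± 41.2 CPM, and Fth1, the ferritin heavy chain that stores iron, at 5448 ± 50.7 CPM. The leading genes varied little between animals: the coefficient of variation was 1.5% for Lyz2, 0.636% for Psap and 0.931% for Fth1, against 11.7% for Chil3.

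Among the 25 named genes with the highest CPM were also Lpl (lipoprotein lipase, 4828 ± 444 CPM), Mpeg1 (the pore-forming perforin-2 of phagosomes, 4216 ± 132), Ccl6 (a CC chemokine, 4051 ± 291), Ctss (cathepsin S, 3335 ± 71.6), Abcg1 (a sterol exporter, 3193 ± 28.7), Lrp1 (an endocytic receptor, 3149.6 ± 272), Ucp2 (a mitochondrial carrier, 2413 ± 62.1) and Axl (a receptor kinase for dead cells, 2378 ± 112). Cytoskeletal genes took much of the rest of this rank list, with Actb at 8179, Vim at 5108, Tmsb4x at 4487, Flna at 3232, Lcp1 at 2913, Iqgap1 at 2871 and Myh9 at 2720.1 CPM. All predicted and unnamed genes were left out of this ranking and of those per kb below. Those at a ribosomal RNA-like locus of chromosome 17 held 0.433 to 0.698% of the reads, lowest in animal 3 and highest in animal 1. The shares of the most abundant genes given above include such genes, with Gm42418 of this locus at 4503 CPM in animal 1.

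Long transcripts give more reads than short ones, so genes were also ranked by CPM per kilobase (kb). By the Length column of the deposited table, Lyz2 (16228 CPM per kb), Chil3 (8272), Fth1 (6291), mt-Co1 (2229), Tmsb4x (1926) and Ear2 (1851) led, and Ctsd (1539) and Ccl6 (1524) followed. The Length column lay within 2% of the summed length of all annotated transcripts of a gene for 6638 of 11369 present genes (58.4%), and within 2% of the merged exon length for 1323 (11.6%). The median ratio of the Length column to merged exon length was 1.5, and the 5th to 95th percentiles ran from 0.455 to 3.68. By merged exon length, Lyz2 (15612 CPM per kb) and Chil3 (10513) led again, followed by Ctsd (3559.6), Tmsb4x (3273), Actb (3053), Ftl1 (2770.4), Ctss (2455), Psap (2357) and Ccl6 (2257). Fth1 stood at 1571 CPM per kb on this scale, since its merged exons are longer than its entry in the Length column. The top 50 by the Length column shared 34 genes with the top 50 by exon length, and 24 with the top 50 by CPM. Below, CPM values serve to compare animals, levels per kb serve to compare genes, and all levels per kb use merged exon length.

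**Figure D1:**
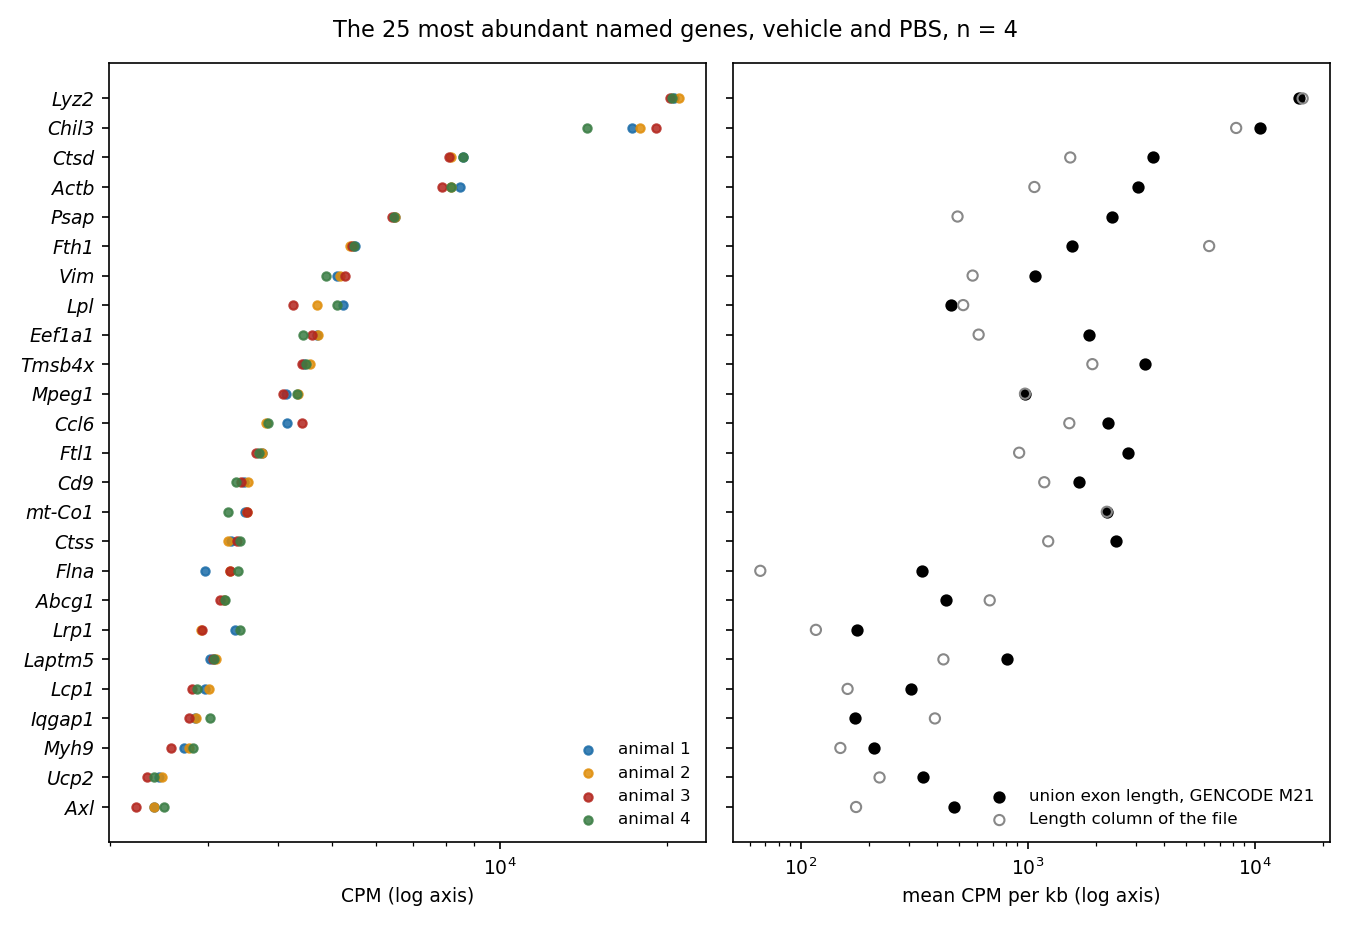
Left, CPM of the 25 most abundant named genes in each of the 4 animals (1 point per animal, log axis). Right, mean CPM per kb of the same genes by merged exon length (filled) and by the Length column (open, log axis). Lyz2 and Chil3 lead on all 3 scales, Fth1 lies higher by the Length column (6291 CPM per kb) than by exon length (1571), and the points of the 4 animals lie close together for most genes.

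The labelled cell type was checked against its markers, and all 6 were present in every animal. The integrin gene Itgax, which encodes CD11c, stood at 1745, 1737, 1695 and 1793 CPM. Ear2, an eosinophil-associated ribonuclease that mouse alveolar macrophages also make, stood at 1346, 1321, 1310.1 and 1345 CPM. For Siglecf, a sialic acid-binding lectin widely used to identify these cells, the values were 569, 569, 544 and 589.9 CPM. For these 3 genes no difference between animals beyond counting error was detected (Pearson chi-square test over the 4 counts, Benjamini-Hochberg adjusted p from 0.065 to 0.474), although Itgax passed the test without animal 2. Car4, a membrane-bound carbonic anhydrase, stood at 465, 423, 452 and 396 CPM, and Pparg, the transcription factor of alveolar macrophage identity, at 178, 162, 207 and 161 CPM. Marco, a scavenger receptor for particles and bacteria, had 432, 403, 394 and 263 CPM, with animal 4 below the other animals (highest to lowest 1.67-fold, adjusted p = 1.4e-56).

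Markers of other cells were sparse. Of 14 T and NK cell genes only Cd247 was present (9.21 CPM), whose exons overlap those of Pou2f1 on the other strand, and Cd3d, Cd3e and Cd3g were listed at 0 counts in all animals. None of the 10 B cell, 10 erythrocyte and platelet, and 6 mast cell and basophil genes measured was present. Of 12 neutrophil genes, Mmp8 (32.7 CPM), Csf3r (29.1), Cxcr2 (7.4) and S100a8 (3.83) were present, while Ly6g, Mpo, Elane, Camp and Retnlg were at 0. The eosinophil genes Ccr3, Epx and Prg2 were at 0, and Il5ra was not detected. Of 9 dendritic cell genes only Clec9a was present (5.89 CPM), and its exons overlap those of Clec1b (70.7 CPM) on the same strand, so its count is uncertain. Of 20 monocyte and interstitial macrophage genes 6 were present. The monocyte gene Ly6c2 was not detected, Ccr2 was at 8.28 CPM, and the complement genes C1qa (1), C1qb (0.521) and C1qc (0.581) were low.

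Some genes used as markers of structural lung cells were nonetheless present. Of all protein-coding genes 48.8% were present, and the counts of present genes below are near that share. Of 17 epithelial genes, 10 were, among them the adhesion gene Epcam (116, 109, 102 and 131 CPM), the protease gene Napsa (56) and Sftpc, which encodes surfactant protein C (21.3, 30.8, 18.9 and 22.6). The keratin genes Krt8 (0.159 CPM) and Krt18 (1 count in all 4 animals together) were low or not detected. Of 10 endothelial genes, 5 were present: Vwf stood at 134, 113, 114 and 127 CPM Calcrl at 56, Cdh5 at 3.59 and Pecam1 at 2.64. Of 10 fibroblast and smooth muscle genes, 5 were present, with the actin-severing gene Gsn at 195 CPM and the collagen gene Col1a1 at 2.26. The summed level of these lists ranged from 214 to 244 CPM for epithelium, 181 to 199.9 for endothelium and 187 to 229.5 for fibroblasts. Whether such RNA came from the sorted macrophages or from other cells was not tested. In bulk samples, more cells of a type and more RNA per cell cannot be told apart.

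**Figure D2:**
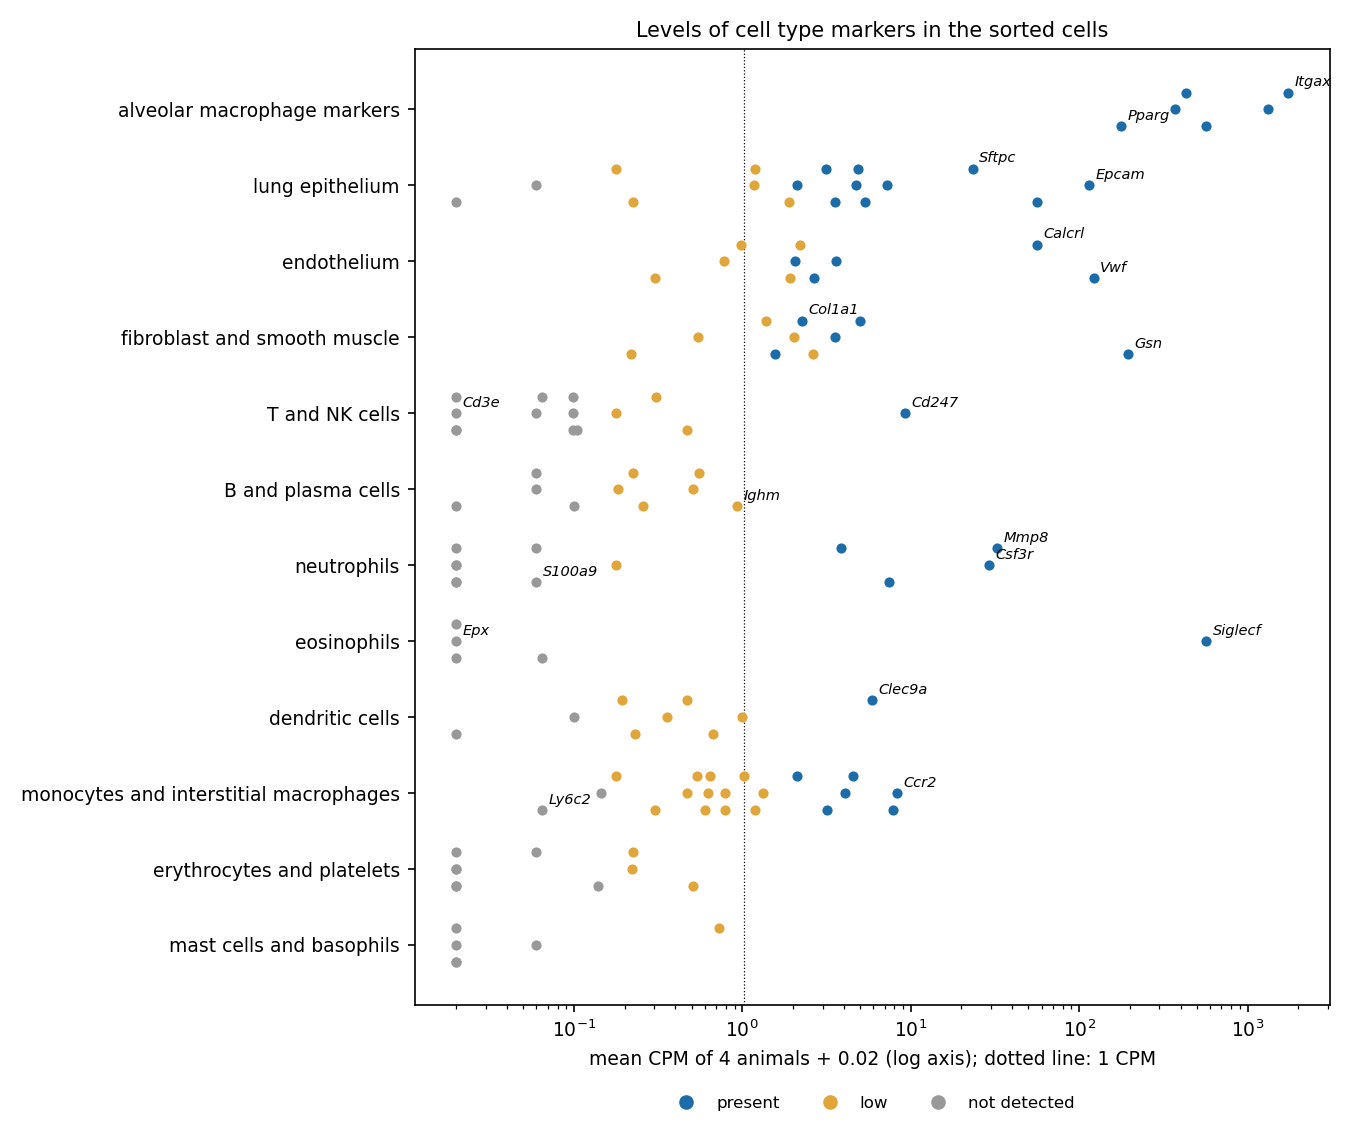
Mean CPM over the 4 animals (plus 0.02, log axis) of each cell type's marker genes, 1 point per gene, coloured as present, low or not detected. The 6 alveolar macrophage markers lie between 177 and 1742 CPM. No B cell, erythrocyte or mast cell gene was present, and only Epcam (115 CPM), Vwf (122 CPM), Gsn (195 CPM) and Siglecf, which is also an eosinophil marker, exceeded 100 CPM in the other lists.

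The surface and secreted proteins of alveolar macrophages were represented almost completely. Of 38 such genes, 37 were present and 30 exceeded 100 CPM, with a median of 467 CPM. Beside the markers above, the tetraspanin gene Cd9 (3450.0 ± 73 CPM), the mannose receptor gene Mrc1 (2364 ± 46.4), Plet1 (1259 ± 35.5), Siglec1 (619.9 ± 27.3), the keratin genes Krt19 (759 ± 38.7) and Krt79 (638 ± 34.6), and F7, which encodes coagulation factor VII (452 ± 15.7), were high. Ear10 was low (0.333 CPM).

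Within 3 gene families 1 or 2 members carried nearly all reads. Lyz2 stood at 15612 CPM per kb and its neighbour and paralog Lyz1 at 6.51. Among chitinase-like genes, Chil3 stood at 10513 CPM per kb, Chil4 at 0.683 and Chil1 at 0.51, and Chit1 was at 0 counts. Of the eosinophil-associated ribonucleases, Ear2 (1851 CPM per kb) and Ear1 (629.5) were high, and Ear6 stood at 6.66. Reads cannot be placed with equal certainty in such families: of all 75-base stretches of the annotated transcripts, 76.6% were unique to Ear2, 60.7% to Ear1, 87.0% to Chil3 and 94.0% to Lyz2. The same share was 34.8% for Itgam (CD11b, 4.52 CPM), 57.7% for Ftl1, 60.2% for mt-Co1, 60.4% for Etfb, 68.7% for Ctsd and 76.2% for Naip5, so those counts are uncertain.

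Transcription factors of macrophage identity were present at moderate levels. Of 30 such genes 28 were present, with a median of 153 CPM, and Cebpb (1096, 951, 1145 and 951 CPM) had the highest level per kb (689). Spi1, which encodes the macrophage lineage factor PU.1, was among the steadiest, with 465, 455, 459.5 and 458 CPM (chi-square adjusted p = 0.824). The C/EBP gene Cebpa (585 CPM), Klf4 (381), Runx1 (371), Bhlhe40 (430.0) and its paralog Bhlhe41 (159), Egr2 (254) and Bach1 (205) were present as well. Bach2 (1.33 CPM) and Smad3 (0.413) were low. Of 10 factors that mark other macrophages, 5 were present, against 48.8% of all protein-coding genes. Their median was 1.71 CPM and the highest of them had 491.5 CPM. Among the members below that median, Gata6 (peritoneum) and Sall1 (microglia) were at 0 counts, Spic (spleen) at 0.98 CPM, and Maf at 1.3 CPM.

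Receptors for the tissue signals that maintain these cells were present. The GM-CSF receptor genes Csf2rb (822, 823, 851 and 892 CPM) and Csf2ra (503) were present, as was Csf2rb2 (243), a paralog of Csf2rb. The TGF-β receptor genes Tgfbr2 (688, 669.5, 653 and 669) and Tgfbr1 (625) and the tumour necrosis factor receptor gene Tnfrsf1b (446) were present as well. The CSF1 receptor gene Csf1r stood at 309.6 CPM. Of 24 growth factor and cytokine receptor genes, 20 were present. The decoy receptor gene Il1r2 and Il2ra were low, and Il5ra and Il1rl1, which encode the receptors of interleukins 5 and 33, were not detected.

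Lipid genes were present from uptake to storage, oxidation and export. Of 20 genes of lipid uptake and binding, 14 were present. Beside Lpl and Lrp1, the fatty acid translocase gene Cd36 stood at 649, 638, 650.5 and 557 CPM, with animal 4 the lowest, and Olr1, a receptor for oxidised lipoprotein, at 444 ± 39. Of the fatty acid binding protein genes, Fabp1 (304 CPM per kb) exceeded Fabp5 (27.1) and Fabp4 (16.5), and Fabp2 and Fabp3 were at 0 counts. In CPM the gap was smaller, with Fabp1 at 168, Fabp5 at 96.7 and Fabp4 at 74.1. The size of the gap per kb therefore depends on the merged exon lengths. Fabp1, the liver-type form, had 155, 165, 166 and 186 CPM. Apoe, a carrier of lipid for other cells, had 50.9 CPM, Msr1 (scavenger receptor A) 16.9 CPM, and Apob was at 0.

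All 18 genes of cholesterol handling were present. Abcg1, which exports sterol to lipoproteins, stood at 3197, 3202, 3153 and 3221 CPM and no difference between animals beyond counting error was detected (adjusted p = 0.569). Its relative Abca1 stood at 402 CPM, or 38.8 per kb against 438 per kb for Abcg1. The lysosomal acid lipase gene Lipa (1163 CPM) (171 per kb) and Nceh1 (1018, 194 per kb) free cholesterol from its esters. Npc1 (42.4 per kb) and Npc2 (82.7) move it out of lysosomes, and Soat1 (34.7) esterifies it. The synthesis genes Hmgcs1 (22.1 CPM per kb) and Sqle (5.09) were lower per kb than these. Cyp27a1, a sterol hydroxylase, had 3.34 CPM.

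Of 19 lipid droplet and triglyceride genes 16 were present. Per kb they were led by Plin2, which coats droplets, with 431 CPM per kb, and by Cidec, which fuses droplets, with 223. Plin2 had 1591, 1483, 1528 and 1456 CPM in animals 1 to 4 and Cidec 385, 422, 429 and 419. Plin3 stood at 39.3 CPM per kb, Plin1 at 0.732, and Plin4 was low and Plin5 not detected. The lipases Mgll (277 CPM), Pnpla2 (173) and its activator Abhd5 (177) were present, and Lipe was at 7.56. Scd1, a fatty acid desaturase, differed between animals, with 156, 114, 131 and 90.2 CPM (1.76-fold, adjusted p = 6.07e-23). For fatty acid oxidation, 19 of 21 genes were present. They included Ucp2 (345 CPM per kb), the gatekeeper Cpt1a (80.5) and the electron carrier subunit gene Etfb (108). The muscle form Cpt1b was not detected (3 counts in all), Ppara was at 0 counts, and Ppard had 43.9 CPM.

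Lysosomal genes were nearly all present, and their levels varied little between animals, with a median coefficient of variation of 3.09% to 3.64% in the proton pump, hydrolase and protease lists and 5.21% in the membrane list, against 4.82% over all genes of 100 to 1000 CPM. All 24 hydrolases and cofactors, 15 of 17 proteases and their inhibitors, 18 of 22 proton pump genes and 15 of 16 membrane protein genes were present. Per kb, Ctsd and Ctss were followed among the proteases by Ctsz (561 CPM per kb) and Ctsk (376), and Ctsb had 1706 ± 62.1 CPM. The neutrophil protease gene Ctsg was at 0 and Ctse not detected. Of the hydrolases, Man2b1 (818 ± 10.4 CPM), which removes mannose, and Pla2g15 (584 ± 4.14), the lysosomal phospholipase, had coefficients of variation of 1.28% and 0.709%. In the proton pump, the V0 subunit gene Atp6v0d2 (451 CPM per kb) exceeded its ubiquitous counterpart Atp6v0d1 (142). In animals 1 to 4 Atp6v0d2 had 1211, 1263, 1272 and 1156 CPM and Atp6v0d1 260.4, 253, 253 and 253. Atp6v1b2 stood at 705 CPM, while the kidney forms Atp6v1b1 and Atp6v0a4 were at 0. Of the membrane proteins, Laptm5 (808 CPM per kb), Cd68 (626) and Lamp1 (447) led, and the channel gene Mcoln3 (92.3 CPM per kb) exceeded Mcoln1 (11.4) and Mcoln2 (2.87). Slc11a1, a phagosomal metal transporter, was at 3.02 CPM.

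Lysosomal genes are known to share the CLEAR motif, an E-box bound by TFEB and its relatives TFE3 and MITF. The genes of these factors were present here (Tfeb 81.5, Tfe3 68.9 and Mitf 69.5 CPM). The letters TCACGTGA, which read the same on both strands, were searched in RefSeq promoters (GRCm38.p6, 250 bases before to 50 after each start). They stood in the promoters of 8 of 58 present lysosomal genes that had a promoter entry (13.8%), in 2.30% of all present genes with an entry and in 320 of 32851 promoters (0.974%). The 8 genes were Atp6v0d1, Atp6v0e, Atp6v1a, Cln3, Ctsa, Ctsd, Gla and Mcoln1. The 250 bases before the start are shown for the most abundant of them, Ctsd (chr7:142387828-142388077, minus strand), and for a catalytic subunit of the proton pump, Atp6v1a (chr16:44139260-44139509, minus strand), on the strand of the gene with the motif in capitals. It begins 99 bases before the start of Ctsd and 132 before that of Atp6v1a.
Ctsd: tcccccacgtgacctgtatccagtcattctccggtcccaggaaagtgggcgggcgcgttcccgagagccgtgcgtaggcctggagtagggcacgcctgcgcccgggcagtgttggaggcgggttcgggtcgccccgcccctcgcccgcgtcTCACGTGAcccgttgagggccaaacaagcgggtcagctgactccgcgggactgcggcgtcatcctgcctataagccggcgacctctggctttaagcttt
Atp6v1a: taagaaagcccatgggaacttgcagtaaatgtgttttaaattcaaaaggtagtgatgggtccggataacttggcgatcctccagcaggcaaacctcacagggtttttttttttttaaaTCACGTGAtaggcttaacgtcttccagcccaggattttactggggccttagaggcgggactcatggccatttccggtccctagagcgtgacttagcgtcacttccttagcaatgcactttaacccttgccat
A match describes the letters of this window only, and binding was not measured.

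**Figure D3:**
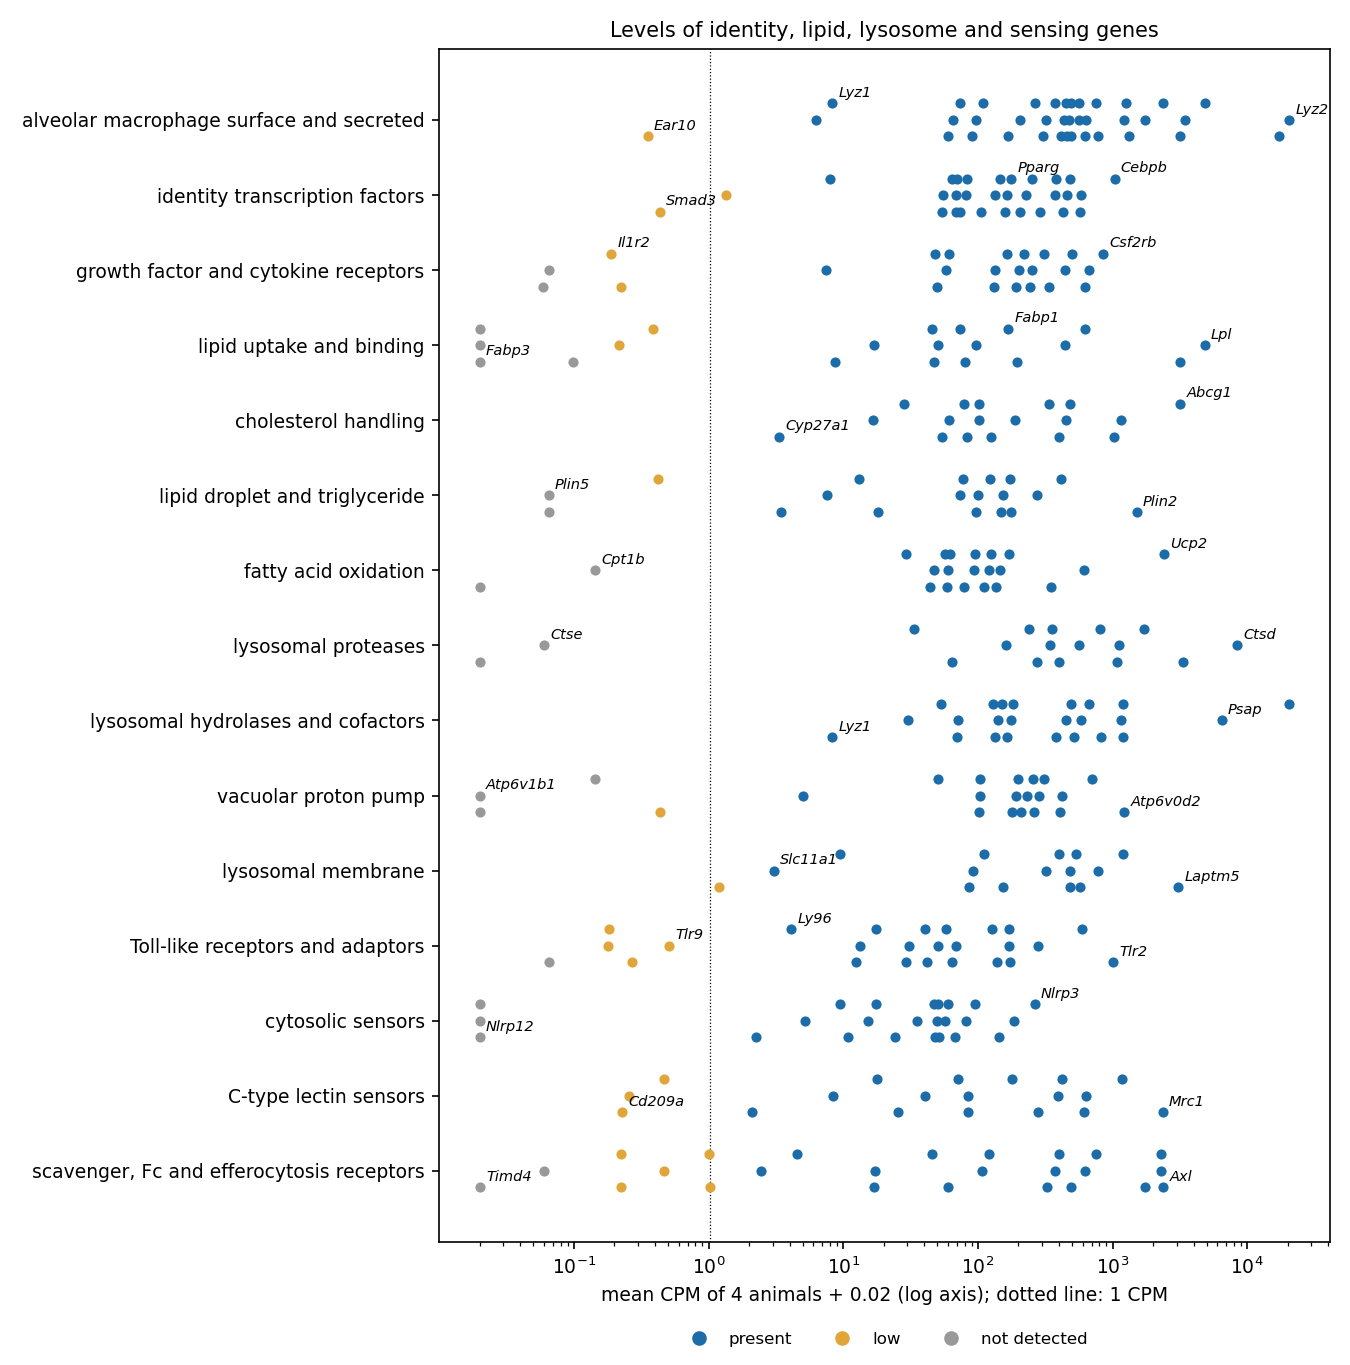
Mean CPM over the 4 animals (plus 0.02, log axis) of the genes of 15 role lists, 1 point per gene, coloured as present, low or not detected. Lysosomal hydrolases and cholesterol handling have every member above the 1 CPM line. Lipid uptake, cytosolic sensors and scavenger receptors have members at 0 counts, such as Fabp3, Nlrp12 and Timd4.

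Most sensors of microbes and damage were present, and some were low or not detected. Of 25 Toll-like receptor (TLR) and adaptor genes, 20 were present, against 48.8% of all protein-coding genes. Tlr2, a receptor for bacterial lipoproteins, had 1045, 937, 1101 and 979.6 CPM (337 per kb). Tlr4, the receptor for endotoxin, had 139.9, 170.1, 173 and 194 CPM (30.5 per kb), with animal 1 the lowest, and its helper Cd14 had 602, 552, 642 and 578. The other subunit of the endotoxin receptor, Ly96 (MD-2), was at 4.09 CPM, and Lbp was low. Among the sensors of nucleic acid in endosomes, Tlr8 (48.2 CPM per kb), Tlr7 (41.5) and Tlr13 (16.1) exceeded Tlr3 (2.57), and Tlr9 was low (0.486 CPM). The chaperone that all of these need, Unc93b1, stood at 281 CPM. Of the partners of Tlr2, Tlr6 was present (12.5 CPM) and Tlr1 low (0.163), while Tlr11 was low and Tlr12 not detected.

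Of 24 cytosolic sensor and inflammasome genes measured, 21 were present. Nlrp3, which assembles an inflammasome, had the highest level per kb (65.2), with 263, 221, 319.9 and 254 CPM and animal 3 above the others (adjusted p = 2.93e-24). Naip2 (184 CPM) and Naip5 (95.7), which sense bacterial secretion system proteins and flagellin with Nlrc4 (46.9), were present. So were Aim2 (49.5), Casp1 (68), Gsdmd (57), the RNA sensors Ddx58 (47.6) and Ifih1 (50.7), and Tmem173, which encodes STING (51.7). Nlrp6, Nlrp12 and Mefv were at 0 counts. Of 19 C-type lectin sensor genes, 16 were present, among them the β-glucan receptor gene Clec7a with 1146, 1189.9, 1129 and 1200.2 CPM (442 per kb, against 371 for Mrc1). Clec4n, the gene of dectin-2, stood at 421 CPM and Clec4e, which encodes Mincle, at 71.5. Mgl2, Clec10a and Cd209a were low.

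Receptors for particles, antibody and dead cells were present in 18 of 25 cases. The integrin chain gene Itgb2 (749.8 CPM per kb), Axl (472) and Sirpa (466), which reads CD47 on healthy cells, led the list per kb. Axl had 2392, 2394, 2227 and 2498 CPM in animals 1 to 4. Mertk, a relative of Axl, had 491 CPM, the third member Tyro3 was low (0.204), and their bridging ligand gene Gas6 was low as well (0.987). The low-affinity Fc receptor gene Fcgr3 stood at 325 CPM and Fcgr1 at 60.3. Timd4, which marks long-lived macrophages of other tissues, was at 0 counts, and Cd163, Vsig4 and Stab1 were low. For chemoattractants and nucleotides, 19 of 26 receptor genes were present, with Fpr1 (247 CPM per kb) and C5ar1 (189), which sense formyl peptides and complement, leading. The fractalkine receptor gene Cx3cr1 (0.622 CPM) and C3ar1 (0.407) were low.

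The animals were then compared with each other. A gene was tested if it had a mean of at least 10 counts, and was called variable where its 4 counts differed by more than counting error (chi-square adjusted p under 0.05) and its highest and lowest level by 2-fold or more. Of 11407 tested genes, 1735 (15.2%) passed the chi-square test and 157 (1.38%) were variable. The p-values measure counting error against the spread between these 4 libraries, and whether a difference arose in the animal, in the sort or in the library was not tested. Passing the chi-square test depends on depth: 4.07% of genes at 1 to 10 CPM passed it, and 86.0% at 1000 to 10000 CPM. The median coefficient of variation was 20.1% at 1 to 10 CPM, where counting error alone gives 19.2%, 8.21% (7.02% by counting) at 10 to 100 CPM, 4.82% (3.01%) at 100 to 1000 CPM and 3.33% (1.05%) at 1000 to 10000 CPM. The common biological coefficient of variation from edgeR was 0.0675.

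**Figure D4:**
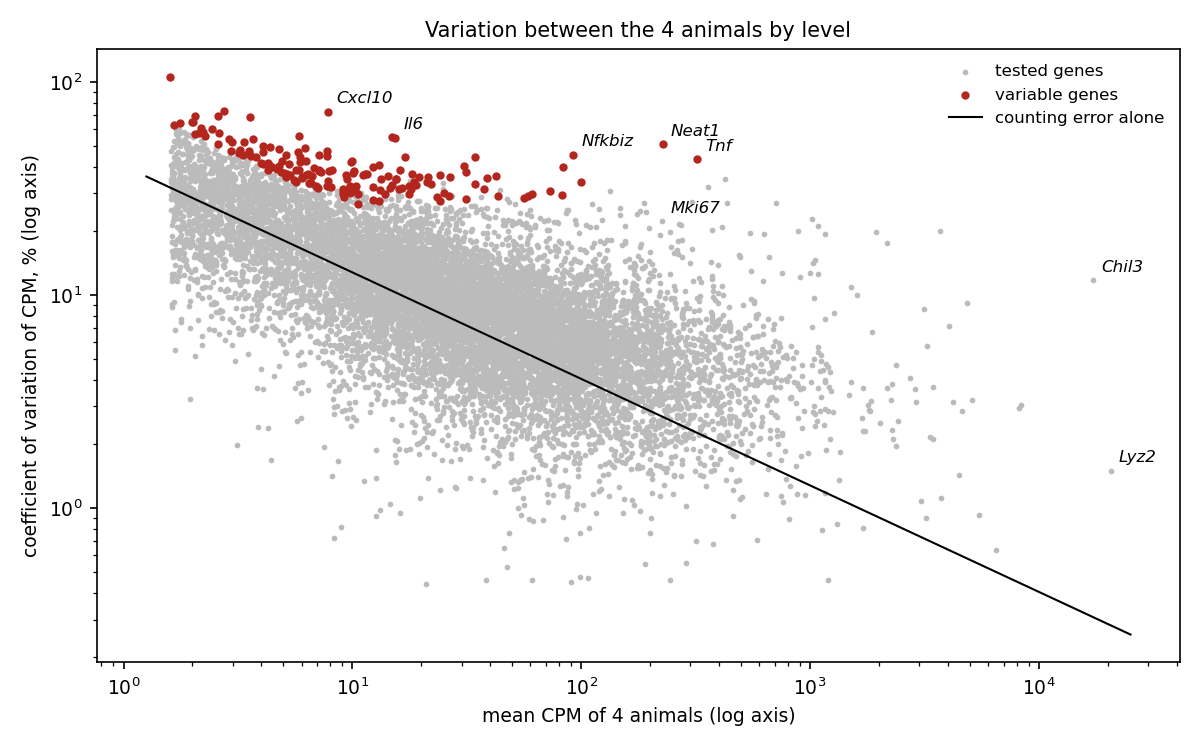
Coefficient of variation over the 4 animals (percent, log axis) against mean CPM (log axis) for the 11407 tested genes. The line is counting error alone for the mean library size, and variable genes are red. Neat1 (227 CPM) and Tnf (320 CPM) are the variable genes with the highest levels, and Lyz2 and Chil3 lie above the line at the right.

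Of the 157 variable genes, 60 were highest in animal 3 and 48 in animal 1, while 59 were lowest in animal 4 and 45 in animal 1. None of the 37 tested surface and secreted genes of alveolar macrophages, the 28 identity transcription factors or the 72 lysosomal genes was variable. Calls depended on level: 94 of the 157 lay at 1 to 10 CPM, and 0.0969% of all genes at 100 to 1000 CPM were variable, so a count of 0 in these lists is near the share of all genes. Leaving out animal 1, 3 or 4 lowered the number of variable genes to 73, 96 or 100, and leaving out animal 2 gave 144. Only 2 of the variable genes exceeded 100 CPM. The nuclear noncoding RNA Neat1 (ENSMUSG00000092274; chromosome 19, 5824708 to 5845478) had 120.1, 159.5, 381 and 247 CPM (3.16-fold, adjusted p = 2.83e-237). Its lowest value was in animal 1 and its highest in animal 3, and it stayed variable whichever animal was left out. The share of reads at the ribosomal RNA-like locus had the inverse order, with 0.698, 0.616, 0.433 and 0.537% in animals 1 to 4, and its part in the result was not tested.

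Cytokine and chemokine genes varied more than most genes. Of 30 measured, 20 were present and tested, 14 of these passed the chi-square test and 5 were variable (Tnf, Cxcl1, Il6, Cxcl3 and Cxcl10), against 15.2% and 1.38% of all tested genes. Their median coefficient of variation was 26.4%, against 8.78% over all tested genes. Animal 3 was the highest for 14 of the 20. Tnf, which encodes tumour necrosis factor, had 357, 224, 499.7 and 198 CPM (2.55-fold, adjusted p = 5.13e-236). Animals 3 and 1 were high and animals 2 and 4 low, and Il6 had the same order with 15.9, 10.2, 27.2 and 8.44 CPM (3.23-fold, adjusted p = 3.12e-16). The neutrophil chemokine genes Cxcl1 (57.7, 54.2, 76.2 and 37.2 CPM) and Cxcl2 (664, 608, 987 and 565) were highest in animal 3 and lowest in animal 4, and Cxcl2, at 1.77-fold, stayed under the 2-fold limit. Cxcl3 had 10.6, 9.27, 27 and 12.4 CPM, and only animal 3 stood clear of the others. For Cxcl10, an interferon-induced chemokine, the values were 11.4, 3.93, 13.9 and 2.16 CPM, the widest range of the list (6.3-fold). Without animal 3, 10 of 20 genes passed the chi-square test and 1, Cxcl10, was variable. Without animal 4, Cxcl1 was no longer variable.

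Among the named variable genes outside the list, Nfkbiz, a nuclear IκB protein that Toll-like receptor signals induce, had 99.6, 65.5, 149 and 55.7 CPM, and the epidermal growth factor family gene Ereg 39.8, 20.9, 53.2 and 23 CPM, both highest in animal 3 and second in animal 1. Neither was variable without animal 3. Il1a had 158, 89.7, 179 and 110.1 CPM and Il1b 128, 106, 156 and 114, again with animals 3 and 1 on top. Members of the cytokine list that did not pass the chi-square test included the interleukin 1 receptor antagonist gene Il1rn (273, 261, 263 and 264 CPM, adjusted p = 0.621) and Il18 (206, 211, 209 and 201, adjusted p = 0.701). Il12a, Il12b and Ifnb1 were at 0 counts, Csf2 was not detected, and Il10 was low (0.367 CPM). Of 20 interferon-stimulated genes 7 were present, Bst2 (29.4 CPM) among them, and Mx1 (0.203) and Ifit1 (1.06) were low. Of 8 tested, 1 passed the chi-square test and was variable, against 15.2% and 1.38% of all tested genes. This was Ifit2 (3.81, 0.943, 1.6 and 2.69 CPM), which was not variable without animal 1 or without animal 2.

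NF-κB is the factor best known to drive these cytokine genes, and its motif was searched in the same promoters as GGG and TTTCC with any 2 bases between, on both strands. Tnf has no match in this window. The motif was in 6 of the 17 present cytokine genes with a promoter entry (35.3%), against 1.98% of all present genes and 535 of 32851 promoters (1.63%). The 6 genes were Ccl9, Cxcl1, Cxcl2, Cxcl3, Il1rn and Il6 and so include both variable genes and Il1rn. The shorter form GGGANTTCC, which can overlap the first, was in 1 of the 17. The 250 bases before the start are shown for Cxcl1 (chr5:90890995-90891244, plus strand), Cxcl2 (chr5:90903649-90903898, plus strand) and Il6 (chr5:30012864-30013113, plus strand), with the longer motif in capitals on either strand.
Cxcl1: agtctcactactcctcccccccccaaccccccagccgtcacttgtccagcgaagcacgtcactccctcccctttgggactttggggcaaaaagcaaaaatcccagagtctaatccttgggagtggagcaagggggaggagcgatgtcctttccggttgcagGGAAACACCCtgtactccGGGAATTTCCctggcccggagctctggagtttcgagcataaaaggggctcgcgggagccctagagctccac
Cxcl2: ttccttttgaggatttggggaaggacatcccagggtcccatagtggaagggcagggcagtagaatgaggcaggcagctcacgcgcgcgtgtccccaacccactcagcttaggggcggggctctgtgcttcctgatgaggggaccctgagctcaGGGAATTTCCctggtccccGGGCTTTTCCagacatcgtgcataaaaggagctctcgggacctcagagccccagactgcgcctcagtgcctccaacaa
Il6: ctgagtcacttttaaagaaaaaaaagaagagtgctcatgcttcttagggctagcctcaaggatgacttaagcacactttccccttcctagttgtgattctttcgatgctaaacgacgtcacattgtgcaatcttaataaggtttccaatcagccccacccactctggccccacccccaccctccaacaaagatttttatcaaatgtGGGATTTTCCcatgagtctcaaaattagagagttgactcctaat
Cxcl1 and Cxcl2, neighbours on chromosome 5, each hold 2 matches within 100 bases of the start, and Il6 holds 1.

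Genes of the cell cycle had another order of animals. All 30 on the list were present, from Mki67 at 294, 224, 215 and 172 CPM to Ccne1 at 12.3 CPM on average. On this list, 29 passed the chi-square test and 5 were variable (Rrm2, Ccnb2, Cdk1, Birc5 and Bub1), against 15.2% and 1.38% of all tested genes. Of all genes at 10 to 100 CPM 12.1% passed the test, and 36.3% at 100 to 1000 CPM. Animal 1 was the highest for 29 of 30 and animal 4 the lowest for 28. The ribonucleotide reductase gene Rrm2, needed for DNA synthesis, had 99.9, 77.3, 70.6 and 44.9 CPM (2.25-fold, adjusted p = 3.86e-25). The mitotic cyclin gene Ccnb2 had 48.9, 37.2, 29.1 and 22.5 CPM and its kinase Cdk1 41.7, 34.9, 28.3 and 21. The topoisomerase gene Top2a had 227, 175, 171 and 125 CPM, the survivin gene Birc5 37.1, 20.3, 22.5 and 17.1 and the replication clamp gene Pcna 188, 167, 159.8 and 131. Animals 2 and 3 lay between the extremes for all of these. The median coefficient of variation of the list was 22.9%, against 8.78% over all tested genes. Summed over the list the level was 2393, 1918, 1882 and 1474 CPM. Without animal 1, 16 genes passed the chi-square test, and without animal 4, 19 did. In both cases none was variable, so the 5 calls rest on both animals. That loss follows in part from the 2-fold limit, since leaving out the highest or the lowest animal narrows the range. Animal 4 also had the fewest reads (5567481), the lowest Marco and Chil3 and the highest summed neutrophil markers (83.2 CPM, against 66 to 72.5 in the others). Of the 4 neutrophil genes tested, 2 were highest in animal 4, 1 in animal 1 and 1 in animal 2. The fibroblast markers Col3a1 (4.76, 3.3, 1.6 and 0.718 CPM) and Mgp (5.71, 3.77, 2.72 and 1.98) were, like most cell cycle genes, highest in animal 1 and lowest in animal 4. Of the 6 tested fibroblast and smooth muscle genes, 5 were highest in animal 1 and 1 in animal 4. The 10 genes of that list summed to 229.5, 225, 187 and 216 CPM, most of it from Gsn (195 CPM on average). The part of any of these in the result was not tested. For the G1 cyclin gene Ccne2 alone no difference beyond counting error was detected (18.9, 22.2, 19.7 and 16.2 CPM, adjusted p = 0.302).

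Promoters of mitotic genes are known for an element named CHR and for CCAAT boxes, and both were searched on both strands. The CHR letters, TTTGAA, were in 12 of the 25 cell cycle genes with a promoter entry (48.0%), against 14.5% of all present genes and 17.9% of all promoters. A CCAAT box was in 22 of 25 (88.0%), against 43.2% of present genes and 37.4% of promoters. The 250 bases before the start are shown for 2 of the variable genes, Ccnb2 (chr9:70421555-70421804, minus strand) and Cdk1 (chr10:69352913-69353162, minus strand), with both motifs in capitals on either strand.
Ccnb2: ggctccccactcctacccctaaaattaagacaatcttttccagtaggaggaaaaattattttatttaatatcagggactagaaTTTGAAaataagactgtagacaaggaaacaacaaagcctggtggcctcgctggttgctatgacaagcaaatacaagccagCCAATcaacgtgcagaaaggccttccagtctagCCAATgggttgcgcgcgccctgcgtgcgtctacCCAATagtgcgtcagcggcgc
Cdk1: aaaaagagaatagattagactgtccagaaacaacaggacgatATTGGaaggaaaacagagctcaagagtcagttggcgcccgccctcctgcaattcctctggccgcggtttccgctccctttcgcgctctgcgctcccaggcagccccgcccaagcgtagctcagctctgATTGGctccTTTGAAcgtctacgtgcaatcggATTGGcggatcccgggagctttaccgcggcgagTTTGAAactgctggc
Ccnb2 has 3 CCAAT boxes before its start and Cdk1 has 3 in the reverse form. A further TTTGAA of Ccnb2 begins 4 bases after the start, outside the bases shown. The PU.1 letters GAGGAAGT were in 5 of the 58 lysosomal genes and 1 of 26 surface and secreted genes, and were in 3.96% of present genes and 3.20% of promoters. The cyclic AMP element TGACGTCA was in 2 of 17 immediate early and heat shock genes, against 3.78% of present genes and 1.79% of promoters.

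Immediate early genes, which cells switch on within minutes of a stimulus, were abundant. Of 22 immediate early and heat shock genes 21 were present, with a median of 351 CPM, and Fos had 1641, 2202, 2546 and 2238 CPM. Of the 21 tested genes 20 passed the chi-square test and 2 were variable, against 15.2% and 1.38% of all tested genes. Of all genes at 100 to 1000 CPM 36.3% passed the test, and 86.0% at 1000 to 10000 CPM. On the list, 17 genes were highest in animal 3 and 13 lowest in animal 1. The ribosomal RNA-like share was lowest in animal 3 (0.433%) and highest in animal 1 (0.698%), and its part in this was not tested. Egr1 had 362, 339.6, 650.0 and 352 CPM, with animal 3 standing apart. Zfp36, which destabilises cytokine RNA, had 875, 988, 1407 and 1072 CPM, Ier2 279, 259.8, 430.5 and 255 and Dusp1, a phosphatase of stress kinases, 646, 952, 1062 and 872. The heat shock genes Hspa1a (3.97, 8.96, 8.95 and 9.16 CPM) and Hspa1b (2.22, 9.43, 5.91 and 7.36) were the 2 variable members and were lowest in animal 1. Without animal 1 neither was variable. They are near-identical copies (45.8% and 44.2% of 75-base stretches unique), so their counts are uncertain. Of 17 circadian clock genes 13 were present, with Per1 at 216, 185, 252 and 221 CPM and the output gene Dbp low.

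Genes of MHC class II and costimulation had another order. Of 12, 10 were present. Among the 10 tested, 8 passed the chi-square test, against 15.2% of all tested genes and 36.3% of those at 100 to 1000 CPM. None was variable, against 1.38% of all tested genes. Cd74, the invariant chain, had 1008, 905, 825 and 1356 CPM (1.62-fold, adjusted p = 1.7e-189). H2-Aa had 275, 235, 225 and 353 CPM, H2-Ab1 271, 234, 223 and 328 and H2-Eb1 168, 132, 127 and 196. Animal 4 was the highest and animal 3 the lowest for each of these 4 genes, and animal 4 was the highest for 8 of 10. H2-DMa, which loads peptides, showed no difference beyond counting error (285, 284, 276 and 297 CPM, adjusted p = 0.541), and the costimulator Cd40 was not detected. Dendritic and B cell markers are given beside this because those cells carry MHC class II: the summed level of the 9 dendritic cell genes was 6.34, 5.97, 10.4 and 12.4 CPM in animals 1 to 4, mostly Clec9a (3.97, 3.61, 7.35 and 8.62). That of the 10 B cell genes was 1.27, 3.61, 2.88 and 3.05 CPM. Their part in the order of the animals was not tested.

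**Figure D5:**
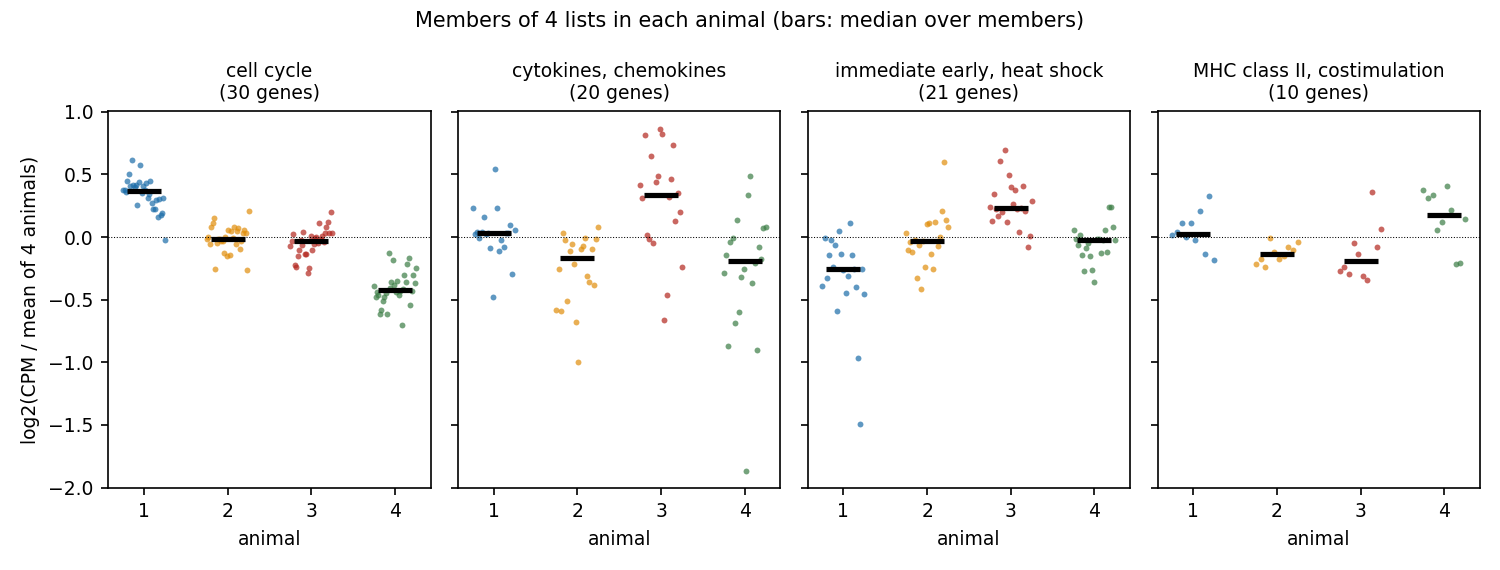
Log2 of each tested member's CPM over its mean in the 4 animals, for 4 lists. Points are genes, coloured by animal, and bars are medians over members. Cell cycle genes lie highest in animal 1 (median 0.37) and lowest in animal 4 (−0.42), cytokine genes (0.34) and immediate early genes (0.23) highest in animal 3, and MHC class II genes highest in animal 4 (0.18).

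Beyond these lists, the named variable genes at 5 CPM or more included cell cycle genes outside the list, with Gtse1 (13.3, 10.2, 12 and 3.95 CPM), Fbxo5 (15.4, 8.64, 10.5 and 5.21) and Psrc1 (8.25, 3.93, 5.43 and 2.87) highest in animal 1 and lowest in animal 4. None of these 3 was variable without animal 4, nor Fbxo5 and Psrc1 without animal 1. Sp110, a nuclear body protein, had 22.7, 24.4, 10.2 and 10.8 CPM, high in animals 1 and 2 and low in animals 3 and 4. H2-Q5, a nonclassical MHC class I gene, had 2.7, 4.87, 10.4 and 5.39 CPM, and Adam33, a metalloproteinase gene, 5.08, 4.4, 11.2 and 10.2. The phosphodiesterase gene Pde1b had 8.09, 9.43, 19.7 and 14.9 CPM and Fam193b 17.8, 25.6, 43.8 and 38.8, both with animals 3 and 4 on top. Adam33 and Sp110 stayed variable whichever animal was left out, H2-Q5 and Pde1b did not without animal 3, and Fam193b did not without animal 1. At lower levels, the fibroblast markers Col3a1 and Mgp, given above, were variable as well, and the endothelial genes Cdh5 (3.01, 5.97, 3.04 and 2.33 CPM) and Cldn5 (1.9, 4.09, 0.959 and 1.8) were highest in animal 2. Col3a1 was not variable without animal 4, Mgp without animal 1 or 4, Cdh5 without animal 2 or 4, and Cldn5 without animal 2 or 3. The animals were labelled male, and the Y-linked gene Ddx3y had 98.2 CPM while Xist had 1 count in all 4 libraries together.

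The library kit named in the labels does not keep strand, so reads of overlapping genes on opposite strands cannot be told apart. Among the genes named above, exons of Cebpb overlap those of Tmem189 (507 CPM), Plet1 those of Plet1os (496), Cd9 those of Gm26728 (424), Ctsa those of Pltp (358), H2-DMa those of Brd2 (334), Cln3 those of Apobr (198) and Npc1 those of Rmc1 (101). The same holds for other named genes, among them Csf1r, Il1a, Dusp1, Ccne2, Abhd5, Hspa1a, Lcp1, Ctsb and Ctsz. Dbp, Plin4 and Fabp3, low or at 0 counts, overlap Sphk2 (46.2 CPM), Hdgfl2 (29.3) and Zcchc17 (25.2) in the same way. The levels of all these genes are uncertain to that extent.

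The most abundant genes were nearly the same in the other groups of the series. Of the 100 genes with the highest mean CPM, 98 were among the 100 highest with metformin and PBS, 93 with vehicle and PM, and 91 with metformin and PM (n = 3 each). No difference between conditions was tested here.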

How the data were processed

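Alveolar macrophage RNA was sequenced as 75-base single-end reads from an NEBNext Ultra I polyadenylated RNA library, per the labels. The deposited counts are whole reads per gene, made by the authors with bcl2fastq 2.19, TopHat2 and HTSeq on mm10, per the submitters' processing notes. The annotation release and the strand setting are not given in the sources used here. The other deposited columns, per the file headers Start, End and Length, describe the gene in bases.

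Here CPM is the count over the library total × 1e6, and levels per kb divide by the Length column or by merged exon length (GENCODE M21, GRCm38). Animals were compared by a Pearson chi-square test of the 4 counts against equal expression after TMM scaling (edgeR 4.0.16, R 4.3.3; mean of at least 10 counts; 3 degrees of freedom; Benjamini-Hochberg adjustment over all tested genes). This test covers counting error only. The edgeR biological coefficient of variation was computed beside it, and the script was tested on simulated data. Nothing says whether libraries were prepared in batches. Of 593 gene names in 36 lists, 591 matched. The named genes are those highest by CPM and per kb, the 20 variable genes of at least 5 CPM with the largest biological coefficient of variation, and members of the lists and families by role. The group and the lists were chosen with earlier results of these data known. Promoters are RefSeq's. DESeq2 1.42.0 size factors were one alternative. Some list members are counted but not reported by name here.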

Additional observations from a re-analysis of the deposited data

Results flagged for a closer look

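Of 288 gene levels, library measures and list sums over the 4 animals, 25 had 1 animal set apart from the other animals, with a gap to the nearest one that took up most of the whole range (Dixon's 95% critical value). Chance alone sets apart about 5% of such groups, so single entries carry little weight.

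Animal 3 was set apart upward for 3 immediate early genes, with Egr1 at 650.0 CPM (next 362), Ier2 at 430.5 (next 279) and Egr2 at 291 (next 243). It was also the highest for Bst2, an interferon-induced surface protein (31.2 CPM, next 29), and for Clec1b (76.7, next 69.5). It was the lowest for Gsn (173 CPM, next 201) and for the sum of the interferon-stimulated genes (163 CPM, next 176).

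Animal 4 had the fewest reads, 5567481 against 6258311 or more. It was also the lowest for the mitochondrially encoded share (0.949%, next 1%), mt-Co1 (3254 CPM, next 3487), the sum of the surface and secreted genes (63600 CPM, next 66984), Krt19 (701 CPM, next 775), Cd36 (557, next 638), Plin3 (137, next 152) and Mcoln1 (84.8, next 86.6). It was the highest for Sirpa (2366 CPM, next 2268).

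Animal 1 was the lowest for Hspa1a (3.97 CPM, next 8.95), for Mitf (59.3, next 72.0) and for the sum of the C-type lectin sensors (6261 CPM, next 6402). It was the highest for Atp6v0d1 (260.4 CPM, next 253) and, at a few counts each, for C3ar1 (0.634 CPM, next 0.359) and Mx1 (0.317, next 0.180). Animal 2 was the lowest for Plin1 (1.89 CPM, next 3.77) and for the sum of the Y-linked genes with Xist (214.5 CPM, next 226), and the highest for Vsig4 (0.314 CPM, next 0.180).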

How the results depend on the processing

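The number of present genes, the share of reads in the top 50 genes, the rankings and their overlap with the other groups stayed within 1.5 times of the reported value or within the spread between animals in all alternatives run. The number of variable genes, 157, was 77 with a minimum mean of 50 counts, 501 with a 1.5-fold limit and 73 to 144 with 1 animal left out, lowest without animal 1, while scaling, thinning and no minimum gave 152 to 165. Of the 157 genes, thinning kept 125, no minimum 136, other scalings 154, and leaving out animals 1 to 4 in turn 69, 111, 87 and 83. The cause was not tested, except that the stricter minimum tests fewer genes and the smaller fold admits more. Mean levels of the named genes moved by less than the spread between animals in 560 of 565 other scalings, and leaving out 1 of 4 animals cannot move a mean by that much. The 5 exceptions rose when mitochondrially encoded reads left the total (Abcg1, Fth1, Pla2g15, Psap and Spi1, whose SDs are small). No paired analysis was possible because the results come from 1 group and no groups were tested against each other. At this depth, genes under 10 CPM vary between animals hardly more than counting error, so their differences were mostly not detectable.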
